A study of Mus musculus with 4 samples.

Results

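Cell cycle and DNA replication genes were taken from a list of 38 gene symbols, 15 of S phase and 23 of mitosis, and matched to the symbol in the amplicon name of a targeted mouse transcriptome table. Members made up 36 of the 23930 genes measured, 14 of S phase and 22 of mitosis. Pcna and Ccnb1 are not analysed here. Nusap1, which bundles spindle microtubules, had no read in any library, so 35 members had a read. With at least 1 RPM (reads of the gene scaled to a common library total) in at least 2 libraries required for a test, 34 members were tested among 11638 genes, all 14 S-phase members and 20 mitotic ones. Bub1 was the other member that did not pass.

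The 4 libraries came from progenitor cells of the subcutaneous tissue of C57BL/6 mice whose Gnas gene is floxed. Gnas encodes the stimulatory G protein alpha subunit, which couples receptors to cyclic AMP production. Cells infected with an adenovirus carrying GFP (Ad-GFP, genotype given as wild type) are controls 1 and 2, and cells infected with one carrying Cre recombinase (Ad-Cre, Gnas-/-) are mutants 1 and 2, with all 4 kept for 7 days in osteogenic medium. The groups therefore differ in the virus as well as in Gnas, and these cannot be told apart here. Nothing in the labels states that the libraries within a group are separate animals or cultures, and p-values therefore reflect only how these 4 libraries scatter, which may be technical. The sources used here give neither the promoter that drives Cre nor the share of cells infected.

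A dividing cell first licenses its origins of replication, when Cdc6 and Cdt1 load the ring-shaped MCM helicase onto DNA, and then copies its genome with nucleotides supplied by ribonucleotide reductase and thymidylate synthase. Genes of this step are largely driven by E2F factors once cyclin-dependent kinases have inactivated the retinoblastoma protein. Genes of mitosis are switched on later in the cycle through CCAAT boxes and CHR elements, and their products condense chromosomes, build the spindle, guard chromosome attachment and divide the cell. In bulk RNA, fewer cycling cells and less RNA per cycling cell cannot be told apart.

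Promoters are shown here because the E2F-type and CHR-type letters named for the 2 arms of the list can be read in them. Of the members in the table, 30 matched a RefSeq promoter of GRCm38.p6 (31 promoters, 13 for 12 S-phase genes and 18 for 18 mitotic genes). The 250 bases before each start were searched on both strands for TTTNNCGC (E2F-type), for TTTGAA or TTCGAA (CHR-type) and for CCAAT. The printed ones are the S-phase and mitotic members with the highest mean RPM that hold an E2F-type or a CHR-type match, respectively, with bases of annotated exons left out. Mcm6 (minus strand, chr1:128359706-128359955) and Mcm5 (plus strand, chr8:75109259-75109508) encode helicase subunits. Cdk1 (minus strand, chr10:69352939-69353162) encodes the mitotic kinase, and Ccnb2 (minus strand, chr9:70421555-70421804) one of its cyclins. Each is written 5′ to 3′ on the strand that RefSeq gives for the gene, and capitals mark the matches to any of these motifs. A short run of bases after the start was found in the first part of a GENCODE transcript of the same gene for Cdk1 and Ccnb2. For Mcm6 and Mcm5 it was found in none on either strand, so these 2 could not be checked in this way.
Mcm6: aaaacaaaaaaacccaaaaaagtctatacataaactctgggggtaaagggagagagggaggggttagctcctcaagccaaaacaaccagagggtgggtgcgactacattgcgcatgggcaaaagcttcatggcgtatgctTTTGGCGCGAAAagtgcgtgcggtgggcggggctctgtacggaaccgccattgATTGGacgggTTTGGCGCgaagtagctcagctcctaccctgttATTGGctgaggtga
Mcm5: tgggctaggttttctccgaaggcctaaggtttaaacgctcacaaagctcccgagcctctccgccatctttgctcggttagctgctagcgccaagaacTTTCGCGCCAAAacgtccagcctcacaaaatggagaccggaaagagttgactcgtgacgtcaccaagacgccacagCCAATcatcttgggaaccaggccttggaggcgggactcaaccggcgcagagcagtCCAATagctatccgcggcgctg
Cdk1: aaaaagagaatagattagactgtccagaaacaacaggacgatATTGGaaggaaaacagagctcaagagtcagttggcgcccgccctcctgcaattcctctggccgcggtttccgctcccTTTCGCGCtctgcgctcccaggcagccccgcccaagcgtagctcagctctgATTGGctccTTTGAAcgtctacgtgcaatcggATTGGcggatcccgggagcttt
Ccnb2: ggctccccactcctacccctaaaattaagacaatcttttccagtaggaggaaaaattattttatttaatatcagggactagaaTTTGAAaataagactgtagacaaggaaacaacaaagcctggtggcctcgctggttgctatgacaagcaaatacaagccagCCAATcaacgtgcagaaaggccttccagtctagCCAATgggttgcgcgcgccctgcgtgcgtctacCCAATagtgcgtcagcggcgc

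The Mcm6 stretch holds 3 E2F-type and 2 CCAAT matches, and that of Mcm5 holds 2 of each. The Cdk1 stretch holds 1 E2F-type, 1 CHR-type and 3 CCAAT matches, while that of Ccnb2 holds 1 CHR-type and 3 CCAAT matches. Over whole windows, the E2F-type letters were in 4 of 13 S-phase promoters (30.8%) and 1 of 18 mitotic ones (5.56%). They were in 4.28% of all 32851 promoters and 6.70% of those of tested genes. The 4 S-phase promoters include the unchecked ones of Mcm6 and Mcm5. CHR-type letters were in 2 of 13 S-phase promoters (15.4%) and 8 of 18 mitotic ones (44.4%), with 17.1% of all promoters and 12.0% of those of tested genes. CCAAT was in 8 of 13 (61.5%) and 16 of 18 (88.9%), with 33.8% of all promoters. All 8 mitotic promoters with the CHR-type letters also held CCAAT. Among these 8, that of Kif11 was also unchecked. Those of Aurka and Kif23, which held CCAAT but neither of the other motifs, were unchecked too. A match is a run of letters, not a measured binding site.

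Values of the 4 libraries are given in the order control 1, control 2, mutant 1 and mutant 2. Libraries held 13483518 to 18455811 reads, and a value of 0 allows up to 3 reads, or 0.163 to 0.222 RPM. Intervals and floors cover counting error only. Each gene was read by 1 amplicon of its own efficiency, so levels are compared between libraries and not between genes. No row was named Gnas, so the labels could not be checked against the targeted gene. All 10 stromal markers were detected in every library, with a summed level of 17663, 25253, 35395 and 39769 RPM. The sum does not stand for each marker: control 2 was above control 1 in 5 of the 10 and below it in 5. By mean log2 values the mutants lay above the controls in 8 and below them in 2. Exons of 8 of the 36 members overlap a gene on the other strand (among them Ccna2, Cdc20, Kif20a, Mcm7, Plk1 and Ube2c), whose reads could not be separated here.

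The main feature of these genes was a difference between the 2 controls. Control 2 stood above control 1 in 33 of the 34 tested members, with Mcm7 as the exception, while it did so in 42.0% of all tested genes. It was at least 2-fold above in 29 of 34 members, 9 of 14 S-phase and 20 of 20 mitotic, against a background of 9.98% of tested genes. With 1 library on each side there is no replicate check of this difference. The median ratio of control 2 to control 1 was 2.82 for the S-phase genes, 6.16 for the mitotic genes and 0.913 for all tested genes. On the log2(RPM + 1) scale the differences ran from -0.13 to 2.58 in the S-phase genes and from 1.44 to 3.64 in the mitotic genes. Both mutants lay between the controls, with control 2 the highest, in 24 of 34 members, where 7.91% of tested genes had that pattern. It was found in 5 of 14 S-phase genes (Ccne1, Mcm3, Mcm4, Mcm5 and Tyms) and in 19 of 20 mitotic genes, all but Cdc20.

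**Figure D1:**
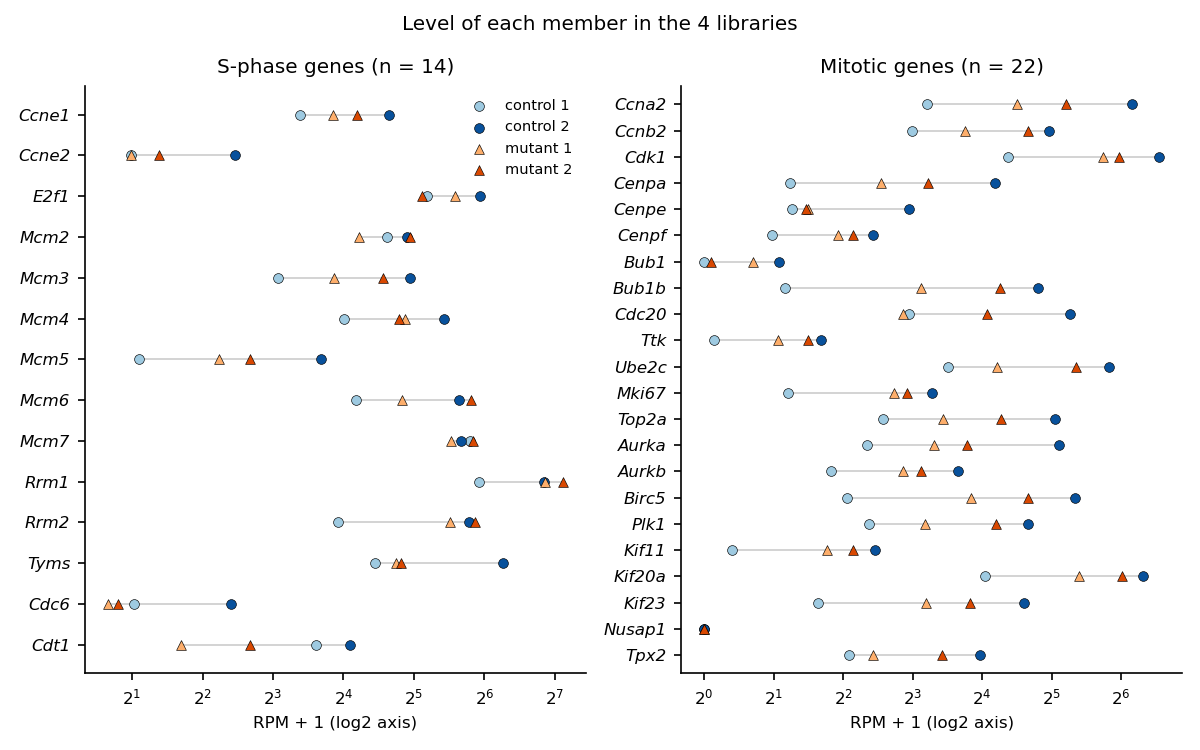
RPM + 1 (log2 axis) of the 36 members in each of the 4 libraries, S-phase genes on the left and mitotic genes on the right, with circles for controls, triangles for mutants and a line from the lowest to the highest library. Control 1 is the leftmost point and control 2 the rightmost in most mitotic genes, with the mutants between them; Nusap1 is at 0 throughout.

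Among the G1/S regulators, Ccne1 and Ccne2 encode the E cyclins that drive entry into S phase with Cdk2. Ccne1 was at 9.43, 24.0, 13.4 and 17.2 RPM, and both mutants fell between the controls. Ccne2 was at 0.975, 4.52, 0.974 and 1.62 RPM, with control 2 alone standing high. E2f1, a transcription factor of S-phase genes, was at 35.3, 60.5, 47.1 and 33.7 RPM and was the S-phase member that dropped most from mutant 1 to mutant 2, with a ratio of 0.714 (95% exact interval 0.638 to 0.799). The mutants overlapped the controls in all 3 genes.

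The 2 licensing factors were the only tested members with both mutants below both controls, a pattern of 21.1% of tested genes. Cdt1, which brings the helicase to origins, was at 11.2, 16.02, 2.23 and 5.39 RPM. Its control mean was 13.6 ± 3.40 RPM and its mutant mean 3.81 ± 2.23 RPM (SD, n = 2 each), a log2 fold change of -1.67 (SE 0.454) with a limma adjusted p (Benjamini-Hochberg) of 0.157. This was the lowest adjusted p among the members and did not pass 0.05. DESeq2 on the whole reads recovered from the RPM gave it an adjusted p of 0.0316, and edgeR's quasi-likelihood test on the same reads called none of the members. Cdc6, the ATPase that acts with Cdt1, was at 1.03, 4.30, 0.573 and 0.741 RPM, with 10 and 11 reads in mutants 1 and 2. It passed the filter through the controls only, so its place below both controls is partly set by the filter. Control 1 lay close above the mutants here, and control 2 was 4.18 times control 1 (95% exact interval 2.45 to 7.43).

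The MCM subunits did not move as a block. Mcm5 was at 1.14, 11.8, 3.72 and 5.39 RPM, and control 2 was 10.4 times control 1 (95% exact interval 6.55 to 17.2), the largest ratio of the 6. Mcm3 was at 7.37, 29.96, 13.5 and 22.6 RPM and Mcm4 at 15.1, 41.9, 28.5 and 26.7 RPM, again with both mutants between the controls. Mcm6 was at 17.2, 49.1, 27.4 and 55.0 RPM, so that mutant 2 was the highest library and 2.01 times mutant 1 (95% exact interval 1.79 to 2.25). In contrast, Mcm2 was at 23.7, 28.9, 17.7 and 29.9 RPM. Mcm7 was at 54.8, 50.1, 45.0 and 56.1 RPM, and its ratio of control 2 to control 1 of 0.915 had an interval that includes 1 (0.829 to 1.01). The amplicon of Mcm7 lies in a gene whose exons overlap Ap4m1 and Cops6 on the other strand.

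The nucleotide supply genes split. Rrm1 and Rrm2 encode the large and small subunits of ribonucleotide reductase. Rrm1 was at 59.9, 114, 116 and 138 RPM and was the only tested member with both mutants above both controls, a pattern of 30.6% of tested genes. Rrm2 was at 14.2, 54.1, 44.8 and 57.6 RPM, with control 1 alone standing low. Tyms, thymidylate synthase, showed the opposite arrangement at 20.9, 76.0, 25.9 and 27.1 RPM, where control 2 alone stood high and both mutants lay close to control 1.

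Among the regulators of mitotic entry, Cdk1 was at 19.8, 92.6, 52.4 and 61.9 RPM. Ccnb2, a B-type cyclin, was at 6.99, 30.2, 12.4 and 24.3 RPM. Ccna2, the cyclin of S phase and early mitosis, was at 8.24, 70.2, 21.8 and 35.8 RPM, and its ratio between the controls was 8.53 (95% exact interval 7.18 to 10.2). In all 3 genes control 1 was the lowest library, control 2 the highest, and mutant 2 lay above mutant 1. This order held in 22 of 34 tested members, 4 of 14 S-phase genes and 18 of 20 mitotic genes.

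Among the mitotic kinases and the chromosomal passenger complex, Birc5 (survivin) was at 3.14, 39.4, 13.3 and 24.2 RPM, a 12.5-fold difference between the controls (95% exact interval 9.54 to 16.7). Aurka, the centrosomal Aurora kinase, was at 4.06, 33.4, 8.94 and 12.7 RPM. Aurkb, the passenger complex kinase, was at 2.55, 11.6, 6.30 and 7.68 RPM. Plk1, a kinase that acts from mitotic entry to cytokinesis, was at 4.17, 24.3, 8.02 and 17.3 RPM. The mutants lay between the controls in these 4 genes, and for Aurka they lay nearer control 1 in RPM.

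Checkpoint genes held the largest ratios. Bub1b, which encodes the checkpoint protein BubR1, was at 1.25, 27.0, 7.67 and 18.1 RPM, and control 2 was 21.7 times control 1 (95% exact interval 14.2 to 34.6). Ttk, the checkpoint kinase Mps1, was at 0.108, 2.23, 1.09 and 1.82 RPM. It had 2 reads in control 1, so its ratio of 20.5 has an interval of 5.21 to 177. Bub1, the partner kinase, was listed at 0 in control 1 and had 15, 11 and 1 reads in control 2, mutant 1 and mutant 2. Cdc20 and Ube2c act in the anaphase-promoting complex pathway, which ends mitosis. Cdc20 was at 6.72, 37.4, 6.24 and 15.8 RPM, with mutant 1 at the level of control 1, and Ube2c was at 10.3, 55.7, 17.5 and 39.8 RPM.

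For the centromere and kinetochore, Cenpa, the histone H3 variant that marks centromeres, was at 1.35, 17.1, 4.81 and 8.35 RPM. Cenpe, a kinetochore motor, was at 1.41, 6.75, 1.83 and 1.75 RPM, so both mutants lay near control 1. Cenpf was at 0.975, 4.38, 2.81 and 3.44 RPM, with the mutants nearer control 2. The spindle and cytokinesis motors followed the order of Cdk1: Kif11 was at 0.325, 4.52, 2.405 and 3.44 RPM, Kif23 at 2.11, 23.3, 8.13 and 13.2 RPM, and Kif20a at 15.4, 78.8, 41.1 and 63.6 RPM. Tpx2, which activates Aurka on the spindle, was at 3.25, 14.6, 4.41 and 9.77 RPM. Mki67, the proliferation antigen that coats mitotic chromosomes, was at 1.30, 8.68, 5.67 and 6.53 RPM. Top2a, which untangles sister DNA, was at 4.93, 32.0, 9.85 and 18.3 RPM. In these genes too, control 1 was the lowest and control 2 the highest library.

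The mutants also differed from each other. Mutant 2 lay above mutant 1 in 31 of 34 tested members, the exceptions being E2f1, Mcm4 and Cenpe, while it did so in 49.3% of all tested genes. It was at least 2-fold above in 7 (Cdt1, Mcm6, Bub1b, Plk1, Cdc20, Tpx2 and Ube2c), compared with 4.5% of tested genes. The median log2 difference of mutant 2 from mutant 1 was 0.35 in the S-phase genes and 0.66 in the mitotic genes, smaller than the 1.40 and 2.29 between the controls. Summed over the list, the S-phase genes stood at 272, 565, 387 and 477 RPM and the mitotic genes at 98.5, 615, 237 and 388 RPM. The spread across libraries was thus wider in the mitotic than in the S-phase genes in both groups.

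**Figure D2:**
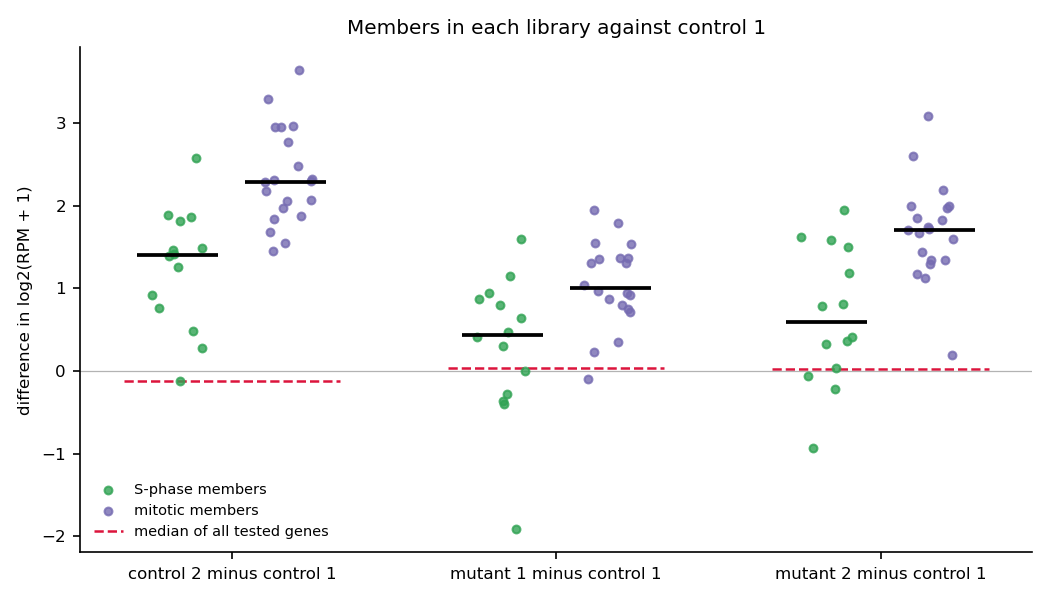
Difference in log2(RPM + 1) of control 2, mutant 1 and mutant 2 from control 1 for the 14 S-phase (green) and 20 mitotic (purple) genes tested, with a black bar at each median and a dashed red line at the median of all tested genes. All 20 mitotic genes lie above 0 in control 2 and in mutant 2, and their medians of 2.29, 1.01 and 1.71 exceed the S-phase medians of 1.40, 0.44 and 0.59.

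Against both controls, none of the 34 tested members passed the test with limma, where 1.73% of all tested genes were called higher and 0.576% lower in the mutants. At an unadjusted limma p below 0.05 there was 1 member, Cdt1, where 2080 of all 11638 tested genes were. DESeq2 called 1 member lower, also Cdt1, where it called 4.24% of all tested genes lower and 5.14% higher, and edgeR called 0 members. The median log2 fold change was -0.026 over the S-phase genes (7 positive, 7 negative), 0.24 over the mitotic genes (16 positive, 4 negative) and 0.08 over all tested genes. The mitotic median changed sign with the count models, to -0.29 with edgeR and -0.32 with DESeq2, so it carries no direction. The median standard error was 0.522 for the S-phase and 0.794 for the mitotic genes, compared with 0.322 for all tested genes. The mitotic fold changes, from -0.64 (Cdc20) to 0.70 (Bub1b), were thus no larger than the spread between the controls. For Bub1b the log2 fold change of 0.70 had a standard error of 1.22.

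Placed against each control alone by the mean of their log2 values, the mutants were above control 1 and below control 2 in 29 of the 34 tested members. Rrm1 was above both, Mcm2, Cdc6 and Cdt1 were below both, and Mcm7 was below control 1 and above control 2. In these fits the single control is assumed to vary like the mutants, and both fits share the mutant libraries. Against control 1 alone, 11 of 34 members were higher in the mutants and 0 lower by limma at an adjusted p below 0.05, where 9.15% of tested genes were higher and 6.82% lower. They were the reductase genes Rrm1 and Rrm2 and the mitotic genes Cdk1, Birc5, Kif20a, Bub1b, Kif23, Ccna2, Mki67, Cenpa and Kif11. The median log2 difference was 0.48 over the S-phase genes, 1.30 over the mitotic genes and 0.02 over all tested genes (0.0199). Rrm2 had the smallest limma adjusted p, 0.00474, with a log2 fold change of 1.77 (SE 0.254). Cdk1 was next, with 1.48 (SE 0.230) and a limma adjusted p of 0.00644. Bub1b had the widest difference, 2.52 (SE 0.498), with a limma adjusted p of 0.0162.

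Against control 2 alone, 7 of 34 members were lower in the mutants and 0 higher, where 6.89% of tested genes were lower and 13.8% higher. They were Tyms, Cdc6 and Cdt1 of the S-phase genes and Aurka, Ccna2, Cenpe and Cdc20 of the mitotic genes. Of these, Cdc6 reached 1 RPM in the controls only, so its place in the test depended on the group where it was high. The median log2 difference was -0.61 over the S-phase genes, -1.04 over the mitotic genes and 0.14 over all tested genes. Tyms had the smallest limma adjusted p, 0.00513, with a log2 fold change of -1.48 (SE 0.219). Cdt1 differed by -1.90 (SE 0.462, limma adjusted p = 0.03) and Cdc20 by -1.80 (SE 0.485, limma adjusted p = 0.042). Ccna2 was called in both fits with opposite signs, 1.65 (SE 0.345, limma adjusted p = 0.02) against control 1 and -1.30 (SE 0.317, limma adjusted p = 0.0305) against control 2. Cdt1 was negative in both fits, at -1.43 (SE 0.468, limma adjusted p = 0.0866) against control 1. With no filter on low values neither fit called any member, and 0 of 19400 genes passed in either.

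**Figure D3:**
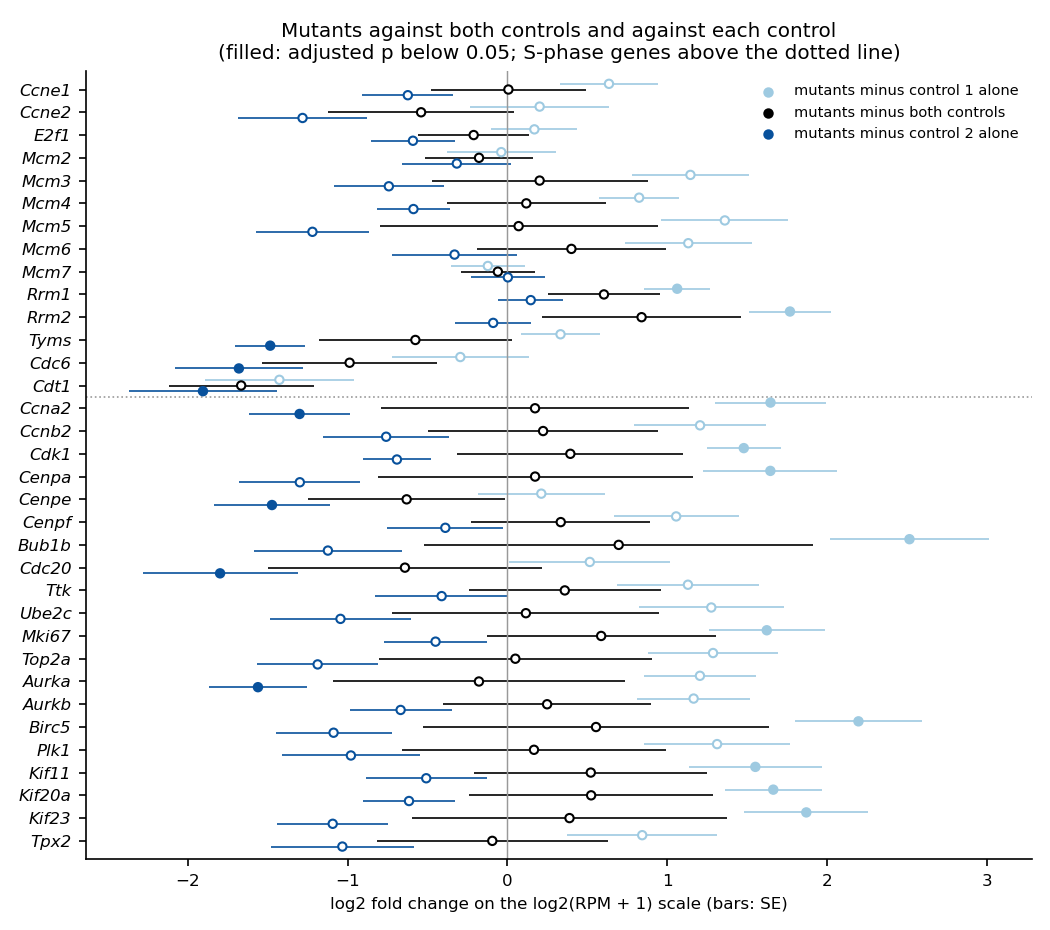
Limma log2 fold change with its SE (bars) of the 34 tested members for the mutants against control 1 alone (light blue), both controls (black) and control 2 alone (dark blue), filled where the adjusted p is below 0.05. No black point is filled, 11 light blue points are filled to the right of 0 and 7 dark blue points to the left.

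Replication and mitosis genes outside the list gave the same counts against both controls. Of 24 other replication genes tested and 33 other mitotic genes tested, limma called 0 and 0 in either direction. At an unadjusted p below 0.05 there were 2 and 1, where 2080 of all 11638 tested genes were. Control 2 exceeded control 1 by a median log2 difference of 1.04 and 1.58 in these lists. The smallest p among the replication genes was that of Chaf1b, a subunit of the chromatin assembly factor, at 15.6, 20.5, 6.93 and 8.08 RPM, with a log2 fold change of -1.15 (SE 0.309, limma adjusted p = 0.152, DESeq2 adjusted p = 0.0274). Both mutants were below both controls, as they were for Dut, the dUTPase, at 29.0, 63.7, 21.4 and 18.5 RPM (limma adjusted p = 0.275). Among all tested genes, 21.1% had that pattern. Pola1, the catalytic subunit of DNA polymerase alpha, was at 3.25, 3.12, 4.93 and 7.07 RPM (limma adjusted p = 0.357). Among the mitotic genes, Gtse1 was at 44.4, 54.4, 99.5 and 84.9 RPM (log2 fold change 0.89, SE 0.228, limma adjusted p = 0.142). Its mutants were both above both controls, as in 30.6% of tested genes. Aspm, a spindle pole protein, was at 0.433, 3.19, 2.23 and 6.73 RPM (limma adjusted p = 0.504), and Hmmr at 1.08, 8.01, 5.61 and 8.15 RPM (limma adjusted p = 0.605).

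The regulators upstream of S phase were taken from a separate list. Of 21 G1 cyclins, kinases, pocket proteins and E2F factors, limma called 0 against both controls. At an unadjusted p below 0.05 there were 6 of the 21, where 2080 of all 11638 tested genes were. The median log2 fold change of the 21 was 0.32, and the median difference between the controls was -0.0031. Rb1, the retinoblastoma protein that restrains E2F, was at 26.8, 18.2, 69.1 and 62.0 RPM, with a log2 fold change of 1.52 (SE 0.277, limma adjusted p = 0.0701). The D cyclins, which pair with Cdk4 and Cdk6 to inactivate it, had both mutants above both controls, a pattern of 30.6% of tested genes. Ccnd1 was at 83.5, 155, 257 and 314 RPM, Ccnd2 at 483, 466, 808 and 945 RPM, and Ccnd3 at 145, 295, 570 and 644 RPM, with limma adjusted p of 0.149, 0.143 and 0.129. DESeq2 called Rb1, Ccnd2 and Ccnd3 higher (adjusted p of 0.000382, 0.0256 and 0.0325), where it called 5.14% of all tested genes higher and 4.24% lower. Against control 1 alone 6 of the 21 rose (Ccnd1, Ccnd2, Ccnd3, Rb1, E2f7 and E2f8), where 9.15% of all tested genes did, and against control 2 alone 5 did (Ccnd1, Ccnd2, Ccnd3, Rb1 and Rbl2), where 13.8% did. With no filter these fits called 0 genes. E2f7 and E2f8, repressors made in S phase and G2, were at 0.379, 5.41, 4.30 and 7.88 RPM and at 0.867, 9.12, 4.93 and 6.87 RPM, so control 1 alone stood low.

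Of 7 inhibitors of cyclin-dependent kinases, Cdkn1c rose and the other 6 did not pass the test, where 1.73% of all tested genes were called higher. Over the 7, the median log2 fold change was 0.25 against control 1 alone and 0.33 against control 2 alone. Over all tested genes it was 0.02 and 0.14. In each of these fits 5 of the 7 were positive and 2 negative. Cdkn1c (p57) was at 6.67, 5.71, 45.1 and 87.4 RPM, with both mutants above both controls, as in 30.6% of tested genes. The ratio of its means was 10.7, and its log2 fold change was 3.15 (SE 0.388, limma adjusted p = 0.0325). Its limma adjusted p was 0.0649 with no filter, and its edgeR adjusted p was 0.0501, so the call does not hold in these settings. Fits without mutant 1 or without mutant 2 cannot decide whether it holds, since they called nothing for any gene. Its log2 fold change was 3.06 against control 1 alone and 3.25 against control 2 alone. Cdkn2a, the locus of p16 and ARF, was at 117, 68.1, 188 and 161 RPM (log2 fold change 0.95, SE 0.314, limma adjusted p = 0.217). Cdkn1b (p27) was at 6.12, 1.78, 8.30 and 6.73 RPM (limma adjusted p = 0.426), and the p53 target Cdkn1a (p21) was at 1074, 847, 1081 and 1046 RPM.

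**Figure D4:**
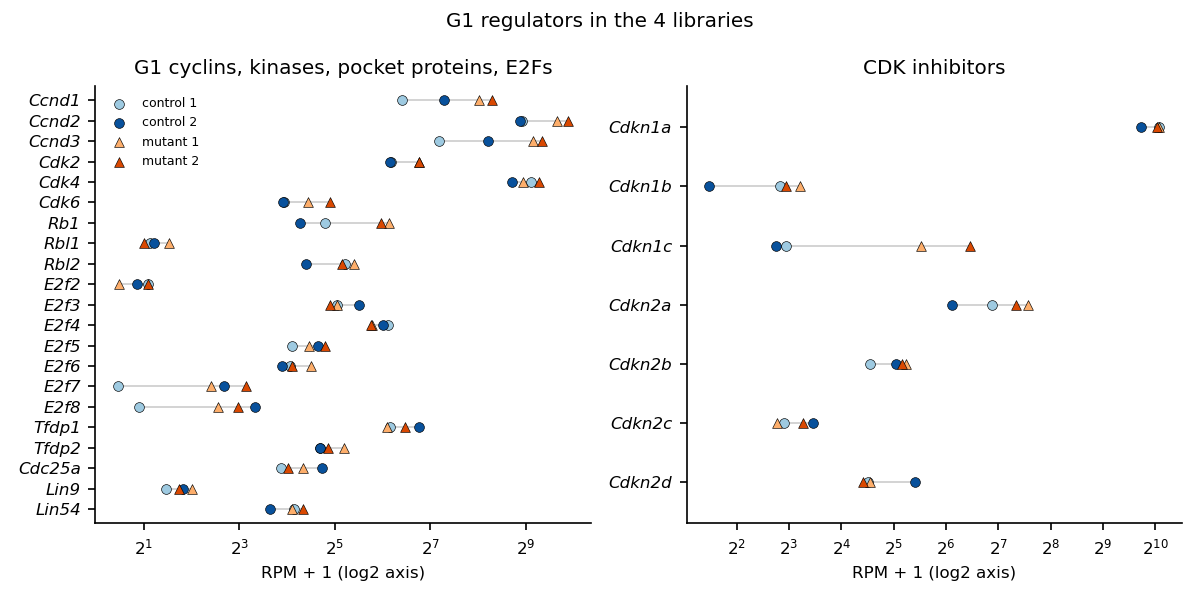
RPM + 1 (log2 axis) of 21 G1 regulators (left) and 7 CDK inhibitors (right) in the 4 libraries, with circles for controls and triangles for mutants. The mutants lie right of both controls for genes that include Ccnd1, Ccnd2, Ccnd3, Rb1, Cdkn1c, Cdkn2a and Cdkn1b, and control 1 lies apart on the left for E2f7 and E2f8.

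Markers of other cell types also differed between the controls. Of 17 macrophage markers in the table, the summed level was 51.9, 1054, 33.8 and 20.7 RPM, with 4, 1, 6 and 8 of them at 0. Lyz2, the lysozyme of macrophages, was at 33.9, 822, 20.8 and 10.4 RPM. Control 2 was above control 1 in all 9 macrophage markers tested, where it was so in 42.0% of all tested genes. Each mutant was below control 1 in 7 of the 9 and above it in 2, Csf1r and Aif1. Of all 11638 tested genes, 5562 were below control 1 in mutant 1 and 5653 in mutant 2. Aif1 was at 0, 4.15, 3.49 and 3.64 RPM, with a log2 fold change of 2.19 against control 1 alone. Over the 9 markers, the median log2 fold change of the mutants was -0.997 against control 1 alone. Against control 2 alone it was -4.04, and all 9 were negative. The 6 endothelial markers summed to 9.97, 84.8, 18.3 and 36.6 RPM, and their members differed in order. Cdh5, the endothelial cadherin, was at 1.25, 23.7, 5.90 and 12.1 RPM, with both mutants between the controls, as for Emcn at 0.813, 31.3, 3.72 and 8.35 RPM and Pecam1 at 1.41, 24.5, 1.83 and 1.48 RPM. Kdr was lower in control 2 than in control 1, at 2.49, 0.890, 1.26 and 2.56 RPM. For Tek both mutants were above both controls, as in 30.6% of tested genes, at 4.01, 4.38, 5.61 and 12.2 RPM. Tie1 was at 0 in all 4. Of 5 skeletal muscle markers, 2 passed the filter and moved in opposite directions between the controls, Acta1 at 6.07, 88.9, 25.4 and 53.9 RPM and Des at 51.0, 24.9, 17.2 and 61.2 RPM. Lymphocyte markers summed to at most 0.222 RPM and keratinocyte markers to at most 0.538 RPM. The part of these cells in the differences of the members was not tested.

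**Figure D5:**
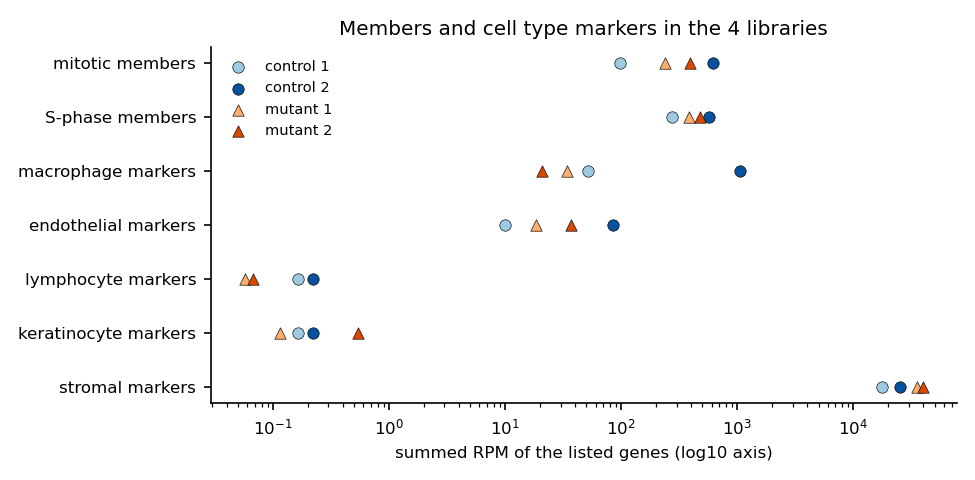
Summed RPM (log10 axis) of the mitotic and S-phase members and of 5 marker lists in the 4 libraries, with circles for controls and triangles for mutants. Macrophage markers reach 1054 RPM in control 2 and at most 51.9 RPM elsewhere, and the endothelial sums run from 9.97 RPM in control 1 to 84.8 RPM in control 2 with the mutants between.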

How the data were processed

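The values are RPM, amplicon reads divided by library size so that all columns share a total, as the authors deposited them for 4 libraries. Per the labels' protocols, the assay was an Ion AmpliSeq panel for the mouse transcriptome. The aligner, counter and build are not stated there (not given in the sources used here). Symbols came from the amplicon names, since 27 gene names had been turned into dates. Low values were whole multiples of 1 read, and 100% of values gave whole reads within 0.01 read, from 13483518 to 18455811 per library.

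The test was two-sided, by limma 3.58.1 in R 4.3.3 (lmFit, trended eBayes), on log2(RPM + 1) of genes that reached 1 RPM in 2 or more libraries. P-values were adjusted over all 11638 genes (Benjamini-Hochberg, threshold 0.05). Fold changes on this scale understate those of low genes. Fits were also run against each control alone. Ratios of 2 libraries have exact (Clopper-Pearson) 95% intervals. Alternatives were other pseudocounts, filters and scalings, a replicate block, left-out libraries, and edgeR 4.0.16 and DESeq2 1.42.0 on the whole reads. The procedure was tested on simulated data with large planted changes and controls that differed by noise only. That simulation does not cover controls as far apart as those of the members here. Promoters are from RefSeq; exon overlaps are from GENCODE M21. The members and lists were chosen with earlier results of these data known. Named were all members, up to 3 genes with the smallest p of each other list of cycle genes, and further Ccnd1, Rbl2, E2f7, E2f8, Cdkn1a and marker genes, chosen after their values were seen. Printed promoters followed a rule on mean RPM, and exon bases were left out first, which was decided after seeing the sequences. Figures were drawn with matplotlib 3.10.9.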

Additional observations from a re-analysis of the deposited data

How the results depend on the processing

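Against both controls, the count of 0 members called held in all settings with every library kept except DESeq2, which called 1 (Cdt1). The number of all genes called moved from 268 to 74 with no filter, 424 with a replicate block, 93 with edgeR and 1091 with DESeq2. With a library left out it ranged from 0 to 2411, and the members called from 0 to 11. The S-phase median became 0.039 with a filter at 5 RPM and ranged from -0.61 to 0.48 with a library left out. The mitotic median was -0.29 with edgeR and -0.32 with DESeq2, and ranged from -1.04 to 1.30. The S-phase median minus the mitotic median moved from -0.26 to 0.067 with edgeR and 0.075 with DESeq2, and ranged from -0.82 to 0.43. The median difference of the controls moved from 1.88 to 1.37 with a pseudocount of 5. Of the settings added after seeing the data, the 11 calls against control 1 alone became 0 with no filter and 4 with quantile scaling. The 7 against control 2 alone became 0 with no filter, 11 with a filter at 5 RPM, 4 with quantile scaling and 13 with edgeR. The replicate numbers share no stated animal or batch; the block called none of the members (lowest adjusted p 0.0882), and same-numbered deviations correlated at r = 0.164 across 11638 genes. The median of all genes moved from 0.08 to 0.0034 with median-of-ratios scaling and -0.033 with quantile scaling. The cause of these changes was not tested.

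Of 368 fold changes of single members with every library kept, 45 in 16 genes turned sign. None of the tested members had passed limma against both controls, whether or not its sign turned. With a pseudocount of 5, the log2 fold change was -0.015 for Ccne1, -0.093 for Mcm5, -0.042 for Top2a, -0.051 for Cenpa. With median-of-ratios scaling, the log2 fold change was -0.075 for Ccne1, -0.0082 for Mcm5, -0.032 for Top2a. With TMM scaling, the log2 fold change was -0.065 for Ccne1, -0.023 for Top2a. With quantile normalization, the log2 fold change was -0.15 for Ccne1, -0.20 for Mcm5, -0.12 for Top2a, -0.015 for Plk1, -0.057 for Cenpa, -0.0013 for Ttk. With edgeR on whole reads, the log2 fold change was -0.22 for Ccne1, -0.15 for Mcm3, -0.15 for Mcm4, -0.62 for Mcm5, -0.50 for Top2a, -0.086 for Cdk1, -0.12 for Ccnb2, -0.57 for Ccna2, -0.26 for Bub1b, -0.13 for Aurkb, -0.28 for Plk1, -0.30 for Birc5, -0.61 for Cenpa, -0.37 for Kif23, -0.32 for Ube2c. With DESeq2 on whole reads, the log2 fold change was -0.24 for Ccne1, -0.18 for Mcm3, -0.17 for Mcm4, -0.65 for Mcm5, -0.53 for Top2a, -0.11 for Cdk1, -0.15 for Ccnb2, -0.59 for Ccna2, -0.28 for Bub1b, -0.15 for Aurkb, -0.31 for Plk1, -0.33 for Birc5, -0.63 for Cenpa, -0.40 for Kif23, -0.34 for Ube2c. With each library left out in turn, the fold changes of 31 genes changed sign, and their ranges were: Ccne1 -0.62 to 0.64, Mcm3 -0.74 to 1.15, Mcm4 -0.59 to 0.83, Mcm5 -1.22 to 1.36, Mcm6 -0.33 to 1.13, Mcm7 -0.21 to 0.10, Rrm2 -0.088 to 1.77, Mki67 -0.45 to 1.62, Top2a -1.19 to 1.29, Cdk1 -0.69 to 1.48, Ccnb2 -0.76 to 1.21, Ccna2 -1.30 to 1.65, Bub1b -1.12 to 2.52, Aurkb -0.67 to 1.17, Plk1 -0.98 to 1.31, Birc5 -1.09 to 2.20, Cenpa -1.30 to 1.65, Cenpf -0.39 to 1.06, Kif11 -0.51 to 1.55, Kif20a -0.62 to 1.66, Kif23 -1.09 to 1.87, Ttk -0.41 to 1.13, Ube2c -1.04 to 1.28, Ccne2 -1.28 to 0.20, E2f1 -0.59 to 0.17, Tyms -1.48 to 0.33, Aurka -1.56 to 1.21, Cdc20 -1.80 to 0.52, Cenpe -1.47 to 0.21, Tpx2 -1.03 to 0.84, Mcm2 -0.54 to 0.19. Outside the list, Hmmr ranged from -0.21 to 1.90 and Gins1 from -0.34 to 1.93 with a library left out. The block gave Rb1 an adjusted p of 0.0479. Depth limits Ttk, Bub1 and other members of few reads in control 1.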

Other observations

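Gins1, a subunit of the GINS complex that works with the MCM helicase, departed from the other replication genes. It was at 3.79 RPM in control 1, listed at 0 in control 2, and at 2.46 and 3.17 RPM in mutants 1 and 2. Among the 24 other replication genes tested, it was the 1 gene that stood at least 2-fold higher in control 1 than in control 2, and it was chosen after its values were seen. Its log2 fold change against both controls was 0.79 (SE 0.779) with a limma adjusted p of 0.643. Genes at least 2-fold higher in control 1 than in control 2 made up 14.1% of all tested genes and 0 of the 34 tested members.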
